A study of Mus musculus with 22 samples.

Results

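The genes described here are 40 genes of the cell division cycle, of 22485 genes named on the arrays: 8 that control entry into DNA synthesis (G1/S control), 13 of DNA replication, 17 of mitosis and 2 inhibitors of cyclin-dependent kinases. They were chosen by gene symbol, and each is represented by its probe with the highest mean over all 22 samples. All 40 had a probe. Their transcripts were measured in microglia and astrocytes sorted from the cortex of aged mice that carry APPswe and PS1dE9 transgenes (APP/PS1), on a C57BL/6 background, and from wild-type littermates (WT) of the same age range, 15 to 18 months. The transgenes are driven by sequence of the mouse prion protein gene, which is not specific to glia, and the mice form amyloid plaques in the cortex. Microglia, 7 samples from APP/PS1 and 7 from WT mice, were sorted as CD11b-positive and CD45-positive cells, and astrocytes, 4 samples of each genotype, as GLT1-positive and CD11b-negative cells. Myelin and O4-positive cells had been removed and dead cells gated out in both. The series describes the samples as biological replicates, and 1 APP/PS1 and 1 WT sample with the same number shared each of 11 arrays, in 2 dyes.

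A cell that divides passes from G1 into DNA synthesis when D-type and E-type cyclins with their kinases release E2F transcription factors, whose targets include the replication genes. Genes of mitosis are switched on later, in G2, by a separate promoter control, and the kinase inhibitors p21 (Cdkn1a) and p27 (Cdkn1b) hold the kinases back at several steps. Adult microglia renew themselves by slow division and divide more around amyloid plaques, whereas most cortical astrocytes are not dividing. The RNA came from whole sorted samples, so fewer cells of a type and less RNA per cell cannot be told apart.

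All values are log2 intensities as deposited, the tests are two-sided limma fits within arrays with adjustment for dye, and p-values are Benjamini-Hochberg adjusted over all genes, with a threshold of 0.05. Differences are APP/PS1 minus WT in log2 units, with the standard error (SE) of the fit. The number of arrays limits their precision, and levels of different probes cannot be compared. The deposited values of every sample had nearly the same median, so a shift shared by all genes cannot be seen in them; the median difference over all genes was -0.04 in microglia and -0.07 in astrocytes.

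Sample identity bore on the results in 3 ways. First, WT microglia replicate 3 stood apart. It was the highest of all 14 microglia samples for 10 of the 12 mitosis genes measured in each of them (83.3%), against 569 of 16370 genes overall (3.48%). It was also highest for 8 of 9 macrophage and monocyte markers and 5 of 7 lymphocyte markers. The mean of the 9 macrophage and monocyte markers was 8.16 to 8.95 in the APP/PS1 microglia samples, 10.47 in WT replicate 3 and 8.31 to 9.47 in the other WT samples. The mean of the 7 lymphocyte markers was 7.70 to 8.23 in the APP/PS1 samples, 8.52 in WT replicate 3 and 6.82 to 8.11 in the other WT samples. For 2 erythroid markers the mean was 6.23 to 8.28 in the APP/PS1 samples, 8.81 in WT replicate 3 and 5.26 to 7.17 in the other WT samples. The mean of 11 microglia markers was 14.82 to 14.98 in the APP/PS1 samples, 15.37 in WT replicate 3 and 15.27 to 15.70 in the other WT samples. Microglia results are therefore given with and without array 3. Array 3 was set apart after these values were seen, the mitosis values among them. Second, marker genes moved with genotype. In APP/PS1 microglia 6 of 9 macrophage and monocyte markers were lower (4 without array 3), as were 6 of 11 microglia markers (4 without array 3, with 1 higher in both), 5 of 10 neuron markers (3 without array 3) and 4 of 12 astrocyte markers (with 1 higher, both counts as without array 3). Of the oligodendrocyte, oligodendrocyte precursor and endothelial markers 2 of 8, 1 of 8 and 1 of 10 were higher, and none of the 8 lymphocyte, 9 mural or 3 erythroid markers passed, with or without array 3. The part of these shifts in the microglia results was not tested. In the astrocyte sort, of 12 astrocyte markers 11 were lower and 1 was higher in APP/PS1 samples. Of 11 microglia markers 9 were higher and 1, Siglech, was lower. Of the endothelial and mural cell markers 9 of 10 and 7 of 9 were higher. The mean of 10 microglia markers was 10.66, 8.36, 8.74 and 8.85 in APP/PS1 astrocyte replicates 1 to 4, against 8.05, 7.08, 7.19 and 8.56 in the WT replicates. The brightest microglia markers went opposite ways. Csf1r averaged 11.54 in APP/PS1 and 9.94 in WT astrocyte samples, and Siglech 13.64 and 14.41. The mean of 8 mural markers was 12.72, 12.77, 10.89 and 12.27 in APP/PS1 and 10.99, 9.97, 9.04 and 11.29 in WT. Of the brightest markers, the smooth muscle gene Acta2 averaged 17.35 in the APP/PS1 astrocyte samples and 15.52 in the WT ones, and the astrocyte genes Aldoc and Slc1a3 averaged 15.63 and 14.18 in APP/PS1, against 16.99 and 15.81 in WT. Their part in the astrocyte results was not tested. Last, the samples of 3 arrays differed widely in the Y-linked gene Eif2s3y: it was 9.64 in APP/PS1 and 4.58 in WT on astrocyte array 1, 9.63 and 4.54 on astrocyte array 3, and 10.54 and 4.47 on microglia array 1.

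Promoter sequence, which the choice of genes did not use, differed between the roles. RefSeq promoters (GRCm38.p6, from 250 bases before to 50 after a transcript start) were matched by symbol for 34 of the 40 genes, 37 promoters in all, and searched on both strands. The letters CCAAT, bound by NF-Y, stood in 13 of 15 mitosis promoters (86.7%), 9 of 13 replication promoters (69.2%) and 37.4% of all 32851 promoters. The letters TTTGAA, the core of the cell cycle genes homology region (CHR) through which the DREAM complex acts, stood in 11 of 15 mitosis promoters (73.3%), 1 of 13 replication promoters (7.69%) and 17.9% of all. E2F-type letters, that is TTGGCGC, or with other bases TTCCCGC, or again TTCGCGC, showed the reverse order, in 2 of 15 mitosis promoters (13.3%), 8 of 13 replication promoters (61.5%) and 8.07% of all. Both CCAAT and TTTGAA were found in 11 mitosis promoters (73.3%) and in 6.95% of all. A match describes these letters in this window and shows no binding.

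The promoters of the 4 genes with the largest differences that passed the threshold in either cell type are shown, with matches in capitals. Mcm6 (chr1:128359656-128359955, minus strand) holds 2 CCAAT matches and 5 E2F-type matches, of which 4 overlap in pairs. Top2a (chr11:99024140-99024439, minus strand) holds 6 CCAAT and 2 TTTGAA matches, and Cdc20 (chr4:118437294-118437593, minus strand) holds 2 CCAAT and 1 TTTGAA. Matches on the other strand appear as the reverse complement, such as ATTGG and TTCAAA. Cdkn1a has 2 annotated starts (chr17:29090729-29091028 and chr17:29093519-29093818, plus strand), and none of these letters in either window. After its sequence was seen, the p53 response element, 2 decamers side by side with at most 1 mismatch, was searched in all promoters. It was present in 29 of 32851 promoters (0.0883%), among them the upstream Cdkn1a window, with 1 mismatch and its first base 51 bases before the start, and in no other promoter of the 40 genes.
Mcm6: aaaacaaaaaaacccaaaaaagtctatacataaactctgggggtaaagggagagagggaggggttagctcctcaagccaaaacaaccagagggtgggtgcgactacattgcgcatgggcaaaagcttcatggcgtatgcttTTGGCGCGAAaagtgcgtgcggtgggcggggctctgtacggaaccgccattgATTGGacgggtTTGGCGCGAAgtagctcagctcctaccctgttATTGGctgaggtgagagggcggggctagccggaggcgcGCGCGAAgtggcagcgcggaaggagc
Top2a: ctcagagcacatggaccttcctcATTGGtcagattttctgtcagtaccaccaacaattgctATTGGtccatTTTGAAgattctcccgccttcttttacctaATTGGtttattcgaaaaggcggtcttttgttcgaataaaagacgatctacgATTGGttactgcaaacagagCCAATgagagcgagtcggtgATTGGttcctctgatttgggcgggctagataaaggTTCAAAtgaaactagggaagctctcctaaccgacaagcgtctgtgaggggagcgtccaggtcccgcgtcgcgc
Cdc20: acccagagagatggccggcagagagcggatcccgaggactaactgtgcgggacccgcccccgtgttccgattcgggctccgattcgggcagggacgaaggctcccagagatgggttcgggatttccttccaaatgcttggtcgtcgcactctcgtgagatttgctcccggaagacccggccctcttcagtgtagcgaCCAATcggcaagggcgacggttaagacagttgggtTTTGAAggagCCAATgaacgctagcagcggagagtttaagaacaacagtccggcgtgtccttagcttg
Cdkn1a, upstream start: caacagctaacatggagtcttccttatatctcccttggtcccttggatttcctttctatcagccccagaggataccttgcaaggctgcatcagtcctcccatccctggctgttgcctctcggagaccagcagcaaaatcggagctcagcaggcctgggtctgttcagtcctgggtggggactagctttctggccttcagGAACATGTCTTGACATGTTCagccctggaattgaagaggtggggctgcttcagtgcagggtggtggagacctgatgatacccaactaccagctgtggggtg
Cdkn1a, downstream start: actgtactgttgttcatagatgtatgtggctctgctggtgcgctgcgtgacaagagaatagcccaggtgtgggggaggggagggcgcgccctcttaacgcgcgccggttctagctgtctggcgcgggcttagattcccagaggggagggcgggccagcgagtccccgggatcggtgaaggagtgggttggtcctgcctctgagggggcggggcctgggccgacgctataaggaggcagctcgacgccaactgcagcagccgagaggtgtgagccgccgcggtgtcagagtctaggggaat

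Over the whole set, 3 of the 40 genes were higher and 1 lower in APP/PS1 microglia, against 8.27% of all 22383 genes higher and 11.4% lower. Both counts were near or below the share of all genes. Without array 3, 13 were higher and 1 lower, against 7.31% and 10.2% of all genes, and the median difference of the 40 was 0.23, against -0.04 over all genes. In astrocytes 9 were higher and 1 lower, against 15.4% and 18.0% of all genes, and the median was 0.33, against -0.07. The genotype effect differed between the cell types for 9 of the 40, 5 of them more positive and 4 more negative in astrocytes, against 13.4% and 13.2% of all genes. Of the 40, 33 had values on every array, and 15 had a mean below that of the median gene. Among the mitosis genes these dim ones were Top2a, Cdk1, Ccna2, Aurka, Aurkb, Bub1, Bub1b, Kif11 and Nusap1. The others were Cdc6, Tyms and Tk1 of replication and Cdk2, Ccne1 and Ccne2 of G1/S control. By role, the effect differed for 4 of 13 replication and none of 17 mitosis genes with all arrays. Without microglia array 3 it differed for 6 replication genes (Cdt1, Mcm2, Mcm3, Mcm5 and Mcm6 more positive in astrocytes, Rrm2 more negative) and for 3 mitosis genes (Top2a more positive, Aurka and Cenpe more negative). Of the 40 genes 7 were then more positive and 7 more negative, against 12.7% and 11.8% of all genes.

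The inhibitor Cdkn1a had the largest genotype difference of the 40 genes in microglia. Its values were 12.59 to 13.50 in APP/PS1 microglia (median 13.29) and 9.38 to 10.99 in WT microglia (median 10.25). The 2 groups did not overlap, and WT replicate 3, at 10.57, lay among the other WT samples. The difference was 2.89 ± 0.15 (SE, adjusted p = 2.66e-06), which is 7.43-fold, and 2.93 ± 0.16 without array 3. APP/PS1 was higher on 7 of 7 arrays, by 2.30 to 3.62, and by 2.82 ± 0.25 on slide 1 and 3.01 ± 0.11 on slide 2 taken alone, where the adjusted p was 0.0295 and 0.0953. Of the 10 other Cdkn1a probes, the 9 within 1 log2 unit of the same level gave mean array differences of 2.91 to 2.97, and the dimmer one gave 1.53.

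Cdkn1a was also higher in APP/PS1 astrocytes. The 4 APP/PS1 samples had 11.61, 11.09, 10.14 and 11.41 in replicates 1 to 4, against 10.05, 9.60, 9.30 and 10.29 in the WT samples. Replicate 3 was the lowest of both groups, and its APP/PS1 value lay below the highest WT value. The difference was 1.26 ± 0.19 (adjusted p = 0.00101), and it was positive on 4 of 4 arrays. Relative to microglia the effect was smaller by a log2 difference of -1.64 ± 0.24 (astrocyte effect minus microglia effect, adjusted p = 0.00113). Most microglia, endothelial and mural markers were higher in the same APP/PS1 astrocyte samples, and their part in the Cdkn1a difference was not tested.

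Cdkn1b, which codes for p27, passed in neither cell type. It averaged 10.18 ± 0.27 in APP/PS1 and 10.07 ± 0.33 in WT microglia (SD, n = 7 each), a difference of 0.13 ± 0.06 (adjusted p = 0.149). In astrocytes it was 11.01, 10.93, 11.12 and 11.42 in APP/PS1 and 11.27, 11.29, 11.19 and 11.52 in WT, lower on 4 of 4 arrays but by only -0.20 ± 0.08 (adjusted p = 0.0739). The difference between these 2 effects passed (-0.33 ± 0.10, adjusted p = 0.0293), but missed the threshold when any of 6 single replicates was left out, with adjusted p of 0.0543 to 0.0717: astrocyte replicates 2, 3 and 4 and microglia replicates 2, 6 and 7.

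**Figure D1:**
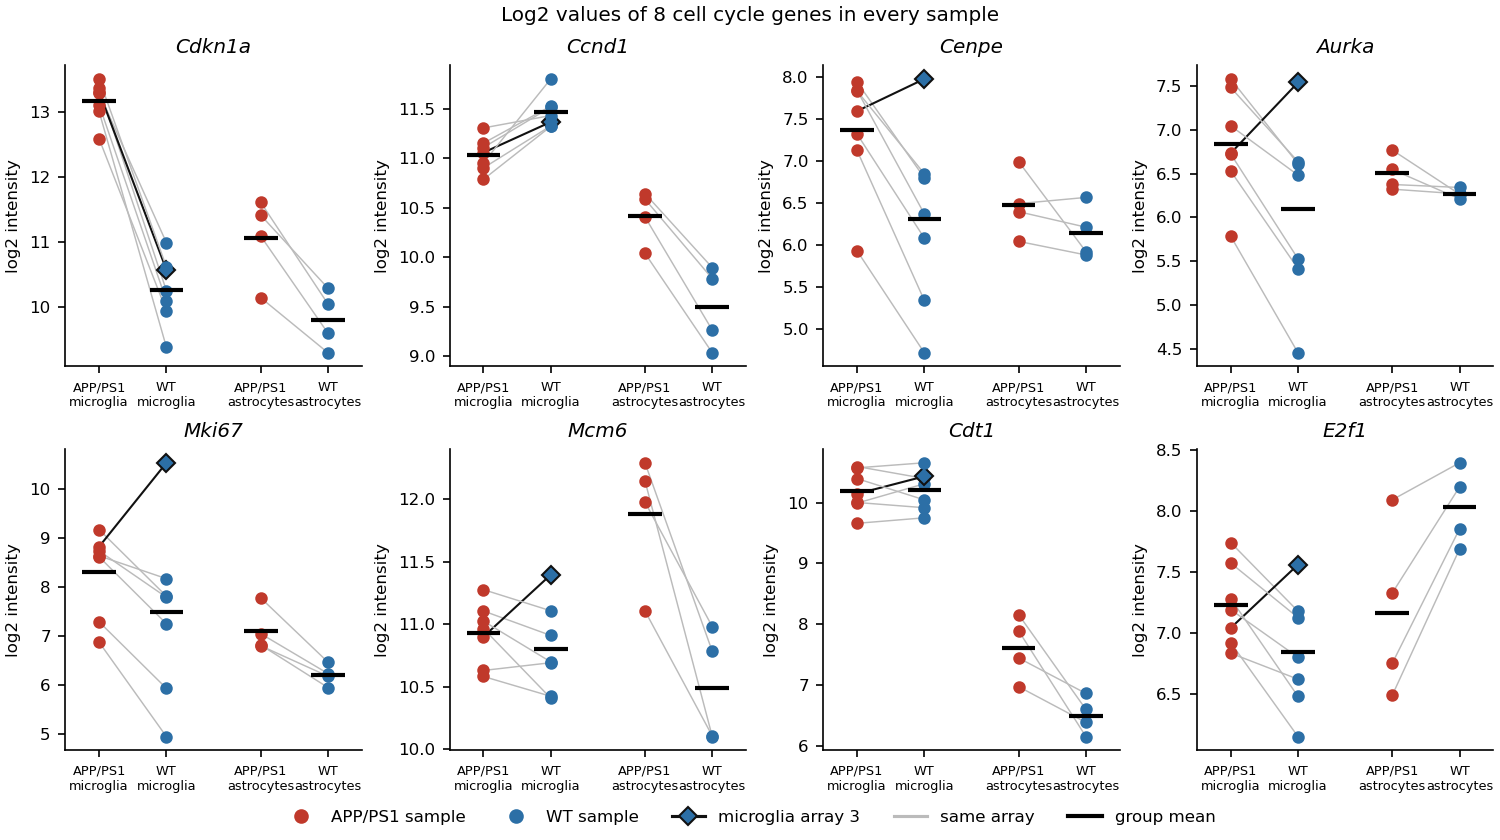
Log2 intensity (vertical axes, one scale per gene) of 8 genes in every APP/PS1 and WT microglia sample (left pair, 7 each) and astrocyte sample (right pair, 4 each). Grey lines join the samples of 1 array, bars are group means, and the black line with the diamond is microglia array 3. Cdkn1a did not overlap between genotypes in microglia, and WT replicate 3 was the highest microglia sample for Cenpe, Mki67 and Mcm6.

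Among the genes of G1/S control, cyclin D1 (Ccnd1), which starts the passage out of G1, changed in opposite directions in the 2 cell types. It was 10.79 to 11.31 in APP/PS1 microglia (median 11.06) and 11.32 to 11.80 in WT microglia (median 11.43). APP/PS1 was lower on 7 of 7 arrays and the groups did not overlap, although the gap between them was narrow. The difference was -0.45 ± 0.08 (adjusted p = 0.00287), with -0.45 ± 0.09 without array 3, -0.35 ± 0.09 on slide 1 alone and -0.62 ± 0.09 on slide 2 alone, where the adjusted p was 0.108 and 0.126. In APP/PS1 astrocytes Ccnd1 was 10.59, 10.41, 10.04 and 10.65, against 9.79, 9.27, 9.04 and 9.90 in WT astrocytes. Every APP/PS1 value lay above every WT value. The difference was 0.93 ± 0.10 (adjusted p = 0.00023), and the 2 effects differed by 1.37 ± 0.13 (adjusted p = 0.00011).

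The other D-type cyclins did not pass in either cell type. Ccnd2 differed by 0.00 ± 0.18 in microglia and 0.59 ± 0.24 in astrocytes, where it was higher on 4 of 4 arrays (adjusted p = 0.0889). Ccnd3 differed by -0.11 ± 0.13 in microglia and 0.40 ± 0.18 in astrocytes. In astrocytes every APP/PS1 sample of Ccnd3, at 12.39 to 12.86, lay above the WT samples, at 12.22 to 12.32, but the fit gave adjusted p = 0.114. The kinases that pair with G1 cyclins did not pass either: Cdk4 differed by 0.07 ± 0.05 in microglia and -0.01 ± 0.07 in astrocytes, and Cdk2 by -0.18 ± 0.11 and 0.09 ± 0.15.

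The transcription factor gene E2f1 and cyclin E1 (Ccne1), which act at the G1/S step together, ran opposite to Ccnd1. In astrocytes E2f1 was 6.49, 7.33, 8.09 and 6.75 in APP/PS1 and 7.69, 8.20, 8.39 and 7.85 in WT. It was lower on 4 of 4 arrays, with replicate 3 the highest sample of both groups, and the difference was -0.87 ± 0.21 (adjusted p = 0.0099). It missed the threshold without astrocyte replicate 1 or 4 (adjusted p of 0.0504 to 0.0526). In microglia E2f1 was 6.84 to 7.74 in APP/PS1 (median 7.19) and 6.15 to 7.56 in WT (median 6.80), where the highest WT sample was replicate 3. The difference did not pass over 7 arrays (0.40 ± 0.16, adjusted p = 0.119) and was 0.53 ± 0.13 without array 3 (adjusted p = 0.022). The effects of the 2 cell types differed by -1.26 ± 0.26 (adjusted p = 0.00629). Ccne1 showed the same order, with 0.31 ± 0.12 in microglia (adjusted p = 0.12), 0.41 ± 0.10 without array 3 (adjusted p = 0.0283) and -0.46 ± 0.16 in astrocytes (adjusted p = 0.0557). Its astrocyte values were 6.41, 6.34, 7.35 and 6.38 in APP/PS1 and 6.97, 7.25, 7.37 and 6.72 in WT, and APP/PS1 replicate 3 stood apart from the other 3. The Ccne1 effects differed by -0.76 ± 0.20 (adjusted p = 0.021), but not without astrocyte replicate 1, 2 or 4 (adjusted p of 0.0504 to 0.0801). Its second, dimmer probe gave mean array differences of -0.44 in microglia and -0.39 in astrocytes, so the microglia direction depended on the probe. Ccne2 had values on only 2 microglia and 3 astrocyte arrays and gave -1.09 ± 0.94 and -0.21 ± 0.80.

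Of the 13 replication genes, none passed in microglia over 7 arrays and 1, Rrm2, was higher without array 3, against 7.31% of all genes. In astrocytes 5 were higher and none lower, against 15.4% and 18.0% of all genes. The 6 genes of the MCM2-7 helicase, which unwinds DNA at the fork, did not all pass in astrocytes: Mcm2, Mcm3, Mcm5 and Mcm6 rose, while Mcm4 (0.17 ± 0.11) and Mcm7 (0.21 ± 0.20) did not pass. Mcm6 had the largest difference. It was 12.29, 12.15, 11.11 and 11.98 in APP/PS1 astrocytes, against 10.78, 10.10, 10.11 and 10.98 in WT astrocytes. The groups did not overlap, and replicate 3 was the lowest APP/PS1 sample. The difference was 1.39 ± 0.19 (adjusted p = 0.000512), which is 2.62-fold.

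Mcm2 was 7.41, 7.53, 6.41 and 7.67 in APP/PS1 and 6.56, 6.21, 5.17 and 6.78 in WT astrocytes. Replicate 3 was lowest in both groups, which overlapped, but on each array APP/PS1 was higher, by 0.84 to 1.33, and the difference was 1.07 ± 0.17 (adjusted p = 0.00127). Mcm5 was 7.75, 7.43, 7.26 and 8.06 in APP/PS1, all above the 7.02, 6.48, 6.63 and 6.95 of WT, a difference of 0.85 ± 0.23 (adjusted p = 0.0158). Mcm3 was 9.0, 8.84, 8.98 and 9.30 in APP/PS1, just above the 8.82, 8.78, 8.61 and 8.64 of WT, a difference of 0.32 ± 0.09 (adjusted p = 0.0184), and its second probe gave a mean array difference of 0.32. The calls of Mcm3 and Mcm5 were the less secure ones. Mcm3 missed the threshold without replicate 1 or 4 (adjusted p of 0.0504 to 0.0881), and Mcm5 without replicate 1, 2 or 4 (adjusted p of 0.0522 to 0.0747).

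Cdt1, which loads the helicase onto origins, followed Mcm6. It was 8.16, 7.89, 6.98 and 7.45 in APP/PS1 astrocytes, against 6.61, 6.16, 6.39 and 6.87 in WT astrocytes. The groups did not overlap. APP/PS1 was higher by 1.56 and 1.73 on arrays 1 and 2 and by 0.59 and 0.58 on arrays 3 and 4, and the fit gave 1.11 ± 0.18 (adjusted p = 0.00117). The licensing partner Cdc6, dim and blank on 3 microglia arrays, gave 0.08 ± 0.26 in astrocytes with array differences of both signs. The genes that supply nucleotides did not pass in astrocytes. Thymidine kinase (Tk1) came closest, at 0.70 ± 0.24 and higher on 4 of 4 arrays (adjusted p = 0.0527), while Rrm1 (0.11 ± 0.11), Rrm2 (-0.30 ± 0.58) and Tyms (-0.13 ± 0.12) were on both sides of 0. The sliding clamp gene Pcna, often read as a sign of replication, differed by 0.15 ± 0.08 in astrocytes (adjusted p = 0.184) and 0.15 ± 0.06 in microglia (adjusted p = 0.131).

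The same helicase genes did not pass in microglia. Mcm6 was 10.58 to 11.28 in APP/PS1 microglia (median 10.97) and 10.41 to 11.40 in WT microglia (median 10.70), a difference of 0.10 ± 0.14 (adjusted p = 0.685). The astrocyte effect exceeded the microglia effect for Mcm6 by 1.29 ± 0.23 (adjusted p = 0.00323), Mcm2 by 1.17 ± 0.22 (adjusted p = 0.00374), Cdt1 by 1.16 ± 0.22 (adjusted p = 0.00418) and Mcm3 by 0.40 ± 0.11 (adjusted p = 0.0215). Without astrocyte replicate 4 the Mcm3 value had adjusted p = 0.0566. For Mcm5 the difference between effects did not pass over all arrays (0.81 ± 0.28, adjusted p = 0.0602) but did without microglia array 3. Rrm2, the small subunit of ribonucleotide reductase, was the one replication gene that changed in microglia without array 3 (0.89 ± 0.20, adjusted p = 0.0148). It was 5.63 to 6.99 in APP/PS1 microglia, 8.99 in WT replicate 3 and 4.96 to 5.93 in the other 6 WT samples, and over 7 arrays the difference was 0.39 ± 0.44.

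**Figure D2:**
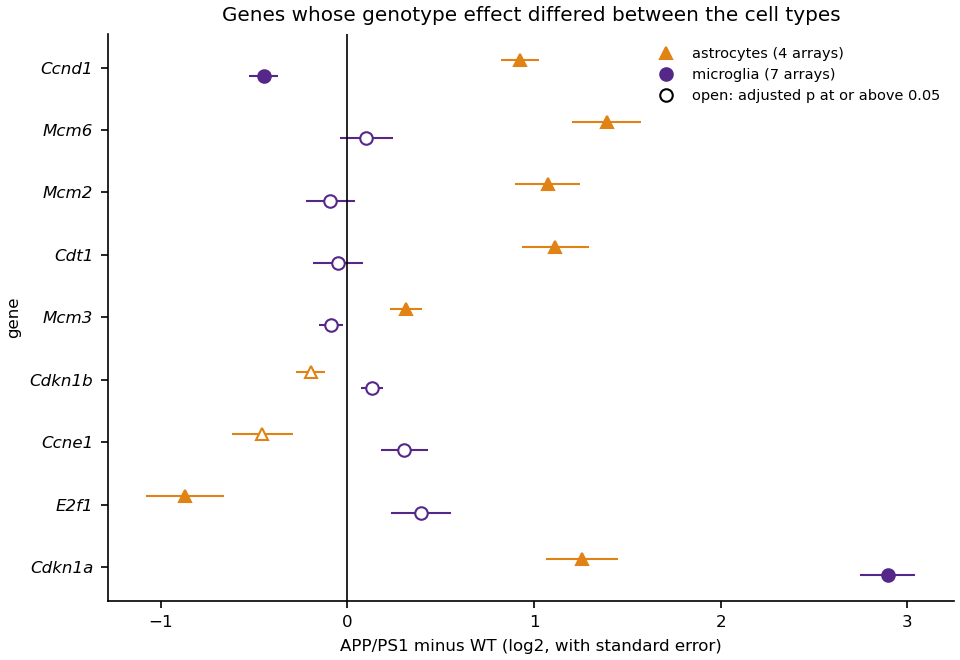
Genotype difference, APP/PS1 minus WT in log2 units with SE (horizontal axis), for the 9 genes whose effect differed between the cell types, in astrocytes (triangles, 4 arrays) above microglia (circles, 7 arrays); open symbols did not pass. Ccnd1 lay on opposite sides of 0, at 0.93 in astrocytes and -0.45 in microglia, and Mcm6, Mcm2 and Cdt1 passed in astrocytes alone.

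The 17 mitosis genes gave a different picture in microglia, one that turned on array 3. Over 7 arrays 2 were higher in APP/PS1 and none lower, against 8.27% and 11.4% of all genes. Cenpe, the kinesin-like motor of the kinetochore, was 5.93 to 7.94 in APP/PS1 (median 7.60), 7.98 in WT replicate 3 and 4.72 to 6.85 in the other WT samples. APP/PS1 was higher on 6 of 7 arrays, and the difference was 1.09 ± 0.23 (adjusted p = 0.00864). It was 1.31 ± 0.16 without array 3 (adjusted p = 0.000804), 0.97 ± 0.32 on slide 1 and 1.27 ± 0.10 on slide 2 (adjusted p = 0.168 and 0.102). Aurka, the kinase of the spindle poles, was 5.79 to 7.58 in APP/PS1 (median 6.73), 7.54 in WT replicate 3 and 4.45 to 6.64 in the other WT samples. The difference was 0.77 ± 0.21 (adjusted p = 0.0288), 0.71 ± 0.37 on slide 1 and 0.81 ± 0.14 on slide 2 (adjusted p = 0.312 and 0.136). Its call was lost when any of the 6 other arrays was left out (adjusted p of 0.0599 to 0.0889), and strengthened without array 3 (1.00 ± 0.11, adjusted p = 0.000475).

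Without array 3, 9 of the 17 mitosis genes were higher and none lower, against 7.31% and 10.2% of all genes. WT replicate 3 was set apart by its high mitosis values, so leaving it out raises these differences by itself. The proliferation marker Mki67 was one of them. It was 6.88 to 9.17 in APP/PS1 microglia (median 8.64), 10.53 in WT replicate 3 and 4.96 to 8.17 in the other WT samples. APP/PS1 was higher by 0.47 to 1.92 on 6 arrays and lower by 1.71 on array 3. The difference was 1.23 ± 0.16 over 6 arrays (adjusted p = 0.00133) and 0.86 ± 0.34 over 7 (adjusted p = 0.109). The other genes that passed over 6 arrays were Top2a, which untangles DNA (0.66 ± 0.13), survivin (Birc5, 0.90 ± 0.21) and borealin (Cdca8, 0.46 ± 0.11), both of the chromosomal passenger complex, the spindle gene Nusap1 (0.81 ± 0.22), cyclin B2 (Ccnb2, 0.56 ± 0.15) and Ube2c, which works with the anaphase-promoting complex (0.67 ± 0.18). Their p-values were 0.0104 to 0.0388. Those of the spindle checkpoint, Bub1 (0.29 ± 0.28) and Bub1b (0.47 ± 0.26), and Cdc20 (0.43 ± 0.17), Plk1 (0.19 ± 0.12), Kif11 (0.42 ± 0.14), Ccna2 (0.38 ± 0.14), Aurkb (0.61 ± 0.71) and Cdk1 (-0.10 ± 0.33) did not pass. For Cdk1 the direction depended on the probe. Over all microglia arrays with values its used probe gave a mean array difference of -0.17, and the other probe near that level gave 0.91. For Bub1 the used probe gave -0.05 and the 9 other probes 0.00 to 0.95. Array 3 is the one array on which all 16 measured mitosis genes were lower in APP/PS1.

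Single arrays gave the same split. Of 12 mitosis genes measured in all microglia samples, 8 were higher in APP/PS1 on each of the 6 other arrays (66.7%, against 12.7% of all genes) and 12 were lower on array 3. This division of the arrays was made with the mitosis values known, so the shares describe it and do not test it. The median difference of the measured mitosis genes was 0.82, 0.34, 0.75, 0.71, 0.53 and 0.38 on arrays 1, 2, 4, 5, 6 and 7, and -1.59 on array 3. The replication genes gave 0.09, -0.01, 0.10, 0.46, 0.31 and 0.06 on the same 6 arrays and -0.50 on array 3. In microglia the mitosis genes therefore stood above the replication genes on each of 6 arrays and below them on the array of WT replicate 3. The mean of the 12 mitosis genes was 6.30 to 7.55 in the APP/PS1 samples, 8.32 in WT replicate 3 and 5.44 to 6.83 in the other WT samples. That sample also carried the most macrophage, monocyte, lymphocyte and erythroid marker signal, and the part of those cells in its mitosis values was not tested.

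**Figure D3:**
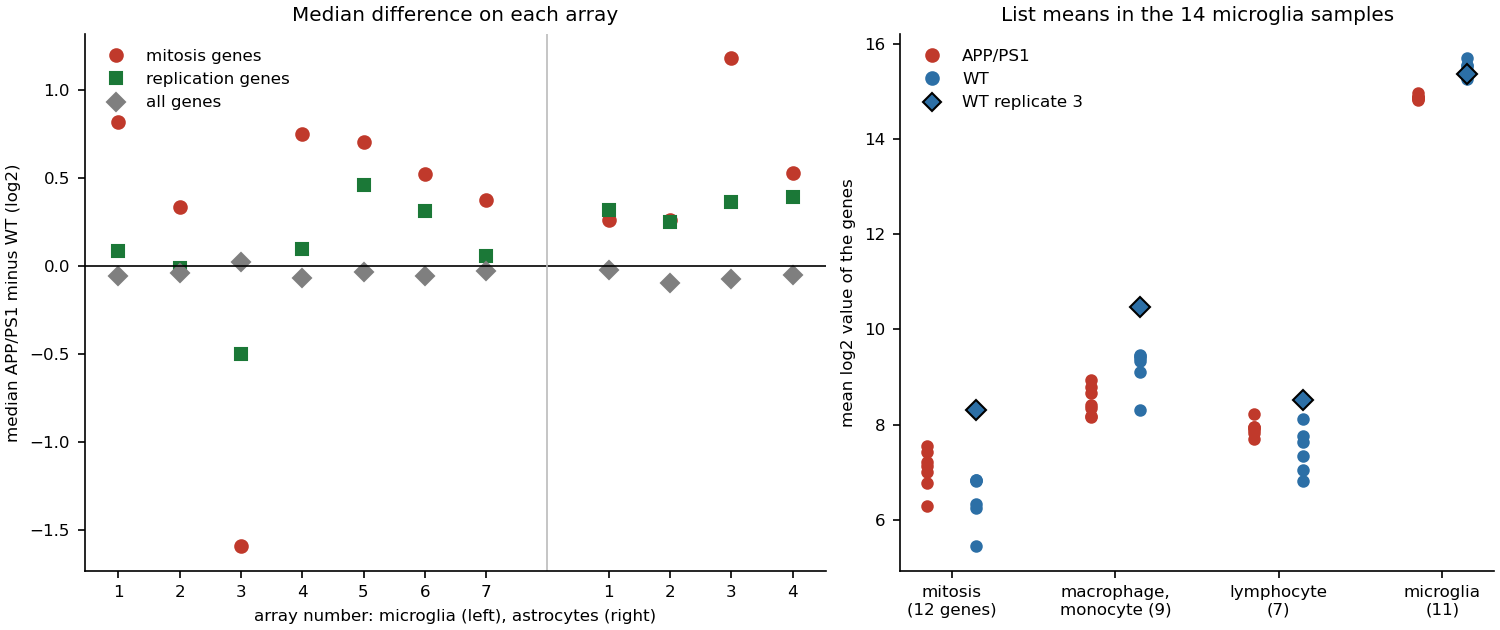
Left, median APP/PS1 minus WT difference (log2) of the measured mitosis genes, replication genes and all genes on each microglia and astrocyte array; the mitosis median was above 0 on every array except microglia array 3. Right, mean log2 value of the mitosis genes and of 3 marker lists in each APP/PS1 and WT microglia sample; WT replicate 3 (diamond) was highest for mitosis, macrophage or monocyte and lymphocyte genes and lay among the other WT samples for microglia genes.

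**Figure D4:**
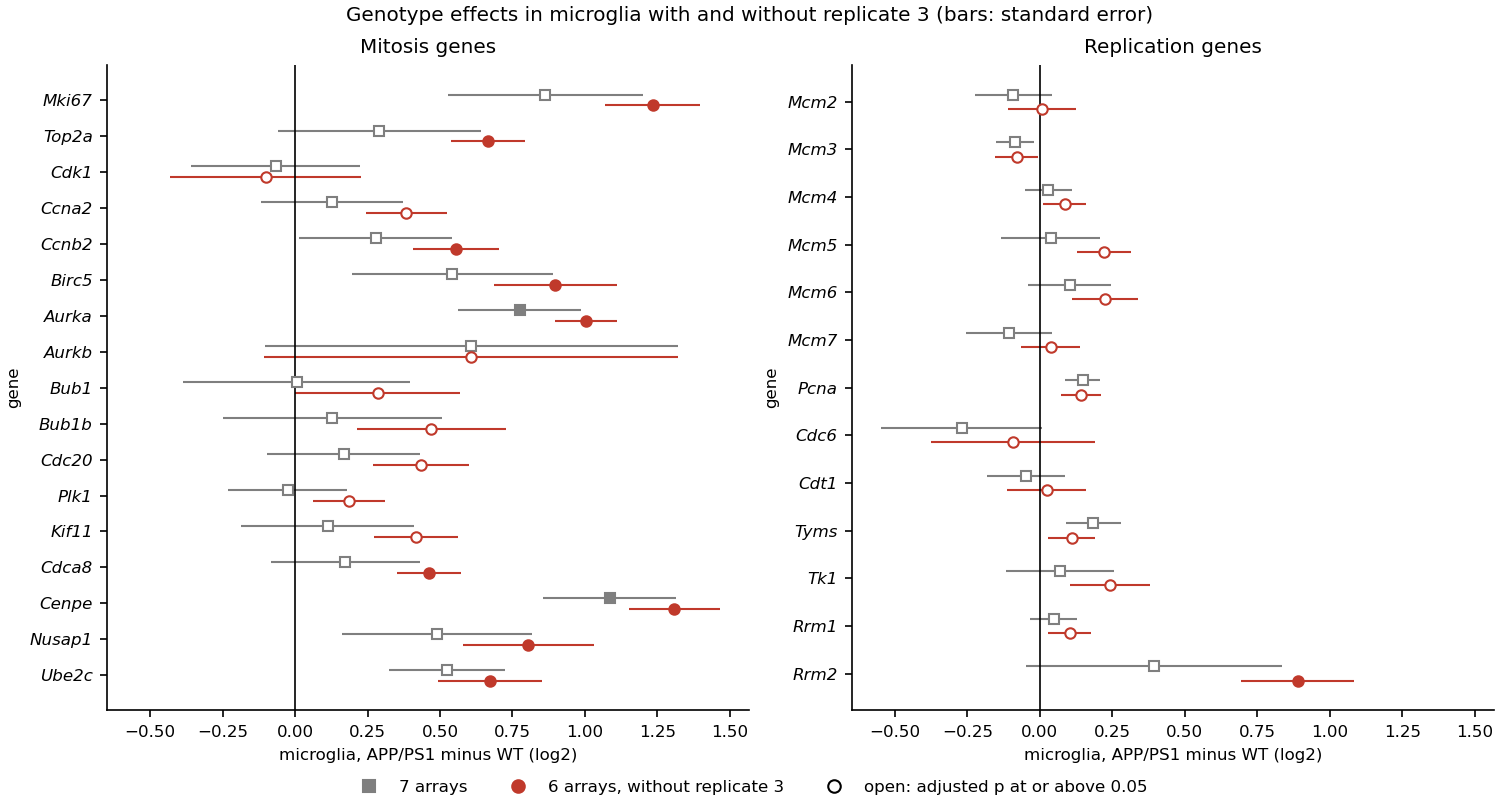
Genotype difference in microglia (log2, horizontal axis, with SE) of the 17 mitosis genes (left) and 13 replication genes (right) over 7 arrays (squares) and over the 6 arrays without replicate 3 (circles); filled symbols passed the threshold. Of the mitosis genes 2 passed over 7 arrays and 9 over 6, and of the replication genes none and 1.

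In astrocytes the fitted differences of all 17 mitosis genes were above 0, but only 2 passed, against 15.4% of all genes called higher. Top2a was dim, at 5.24, 4.54, 4.46 and 4.48 in APP/PS1, against 3.43, 2.97, 3.63 and 3.37 in WT. The groups did not overlap, with APP/PS1 replicate 1 apart from the other 3, and the difference was 1.33 ± 0.41 (adjusted p = 0.036). Cdc20, an activator of the anaphase-promoting complex, was 7.87, 8.04, 8.36 and 8.49 in APP/PS1, all above the 7.34, 6.70, 6.90 and 7.02 of WT, a difference of 1.20 ± 0.35 (adjusted p = 0.0233). Both calls were fragile. Top2a missed the threshold without any one of the 4 arrays (adjusted p of 0.0551 to 0.138), and Cdc20 without replicate 2, 3 or 4 (adjusted p of 0.0698 to 0.101). These fits share 1 spread per gene between the cell types, so the astrocyte SE also holds the spread between microglia arrays, array 3 included. In limma on the astrocyte arrays alone Top2a differed by 1.33 ± 0.13 and Cdc20 by 1.20 ± 0.18 (adjusted p = 0.0454 for each). Ccnd1, Mcm2, Mcm6, Cdt1 and Cdkn1a had the same adjusted p in that fit of 4 arrays, so it does not rank these genes. The shared fit of the astrocyte effects was not repeated without microglia array 3. Mki67 was 6.82, 7.05, 7.78 and 6.80 in APP/PS1 and 5.95, 6.24, 6.47 and 6.18 in WT. The groups did not overlap, but the shared fit gave 0.90 ± 0.44 (adjusted p = 0.151). Ube2c (0.75 ± 0.26, adjusted p = 0.052) and Nusap1 (1.05 ± 0.43, adjusted p = 0.0878) were close to the threshold. The kinase gene Cdk1 had array differences of -1.41 and -1.26 on arrays 1 and 2 and 2.29 and 1.29 on arrays 3 and 4. Array 3 had the largest median mitosis difference, 1.18, against 0.26, 0.27 and 0.53 on arrays 1, 2 and 4.

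**Figure D5:**
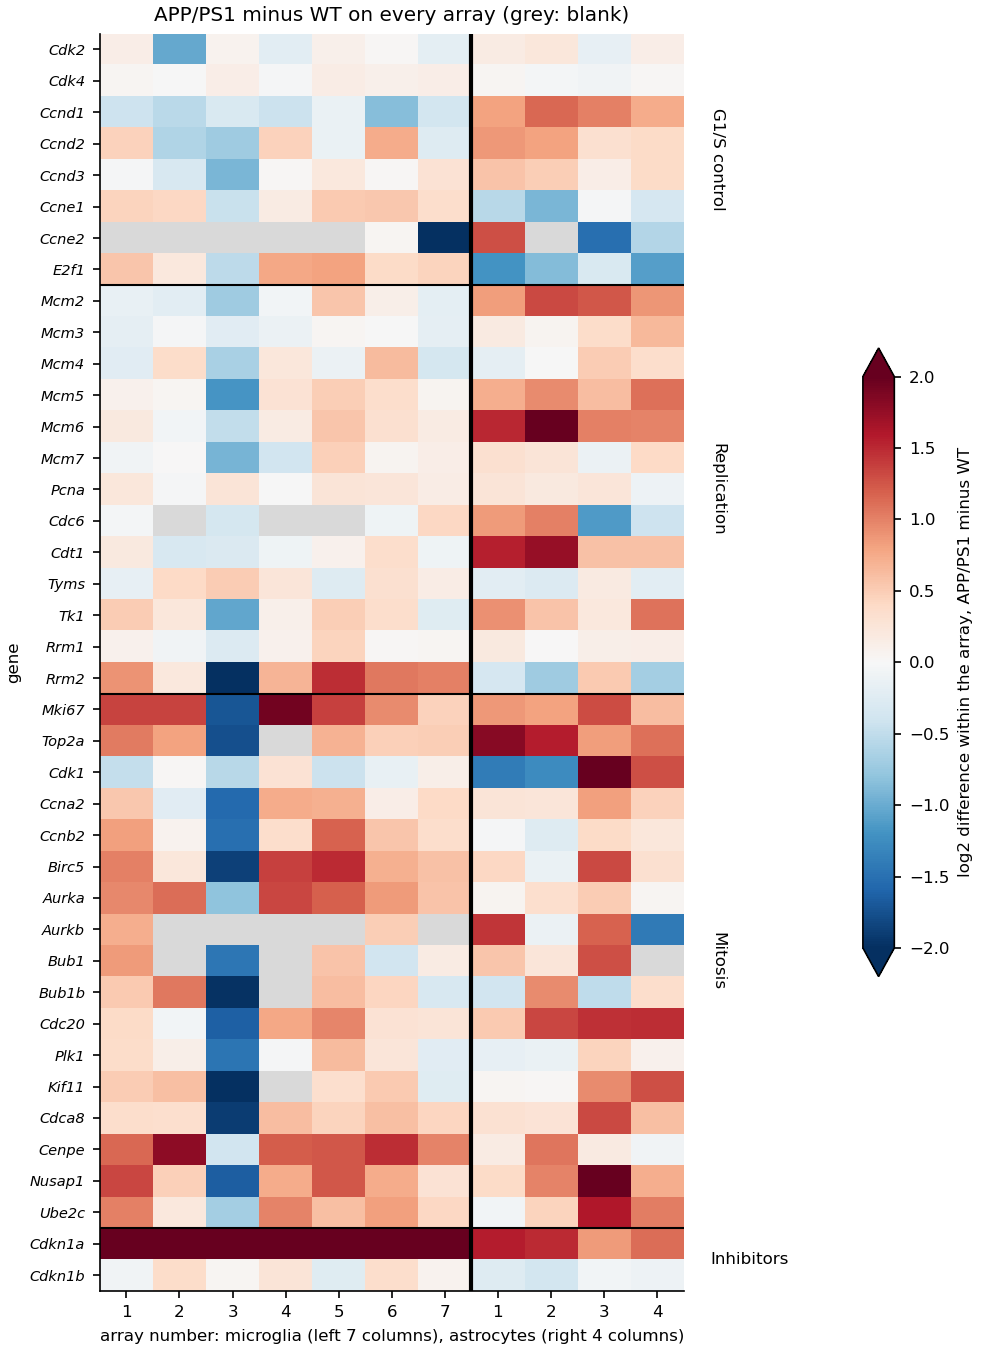
Difference within each array, APP/PS1 minus WT in log2 units (colour, red higher and blue lower, cut at 2), for the 40 genes (vertical, grouped by role) on 7 microglia and 4 astrocyte arrays (horizontal); grey is blank. The mitosis block was mostly red on microglia arrays other than 3 and blue on array 3, and Cdkn1a was red on all 11 arrays.

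The astrocyte counts fell when single arrays, or the arrays whose samples differed in Eif2s3y, were left out. Without replicate 4, 5 of the 9 genes were still called higher (Ccnd1, Mcm2, Mcm6, Cdt1 and Cdkn1a), and E2f1 was not called. A further fit kept all microglia arrays and only the 2 astrocyte arrays with samples matched in Eif2s3y, replicates 2 and 4. Its p-values therefore drew on the spread between microglia arrays. In it the same 5 were higher and E2f1 was lower. The differences were 1.52 for Mcm6, 1.11 for Mcm2, 1.16 for Cdt1, 0.95 for Ccnd1, 1.31 for Cdkn1a and -0.98 for E2f1. Top2a (1.34 ± 0.63), Cdc20 (1.41 ± 0.53), Mcm3 (0.36 ± 0.13) and Mcm5 (1.03 ± 0.34) kept their direction there and did not pass. Over 4 astrocyte arrays they were 1.33 ± 0.41, 1.20 ± 0.35, 0.32 ± 0.09 and 0.85 ± 0.23. The differences were thus no smaller on the matched arrays, and each SE was larger.

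The resting levels of WT cells were compared next, WT astrocytes minus WT microglia, and here 6 of the 40 genes were higher in astrocytes and 11 lower, against 35.3% and 18.0% of all genes. All astrocyte arrays lay on a slide of their own, and its effect cannot be told apart from that of cell type. The D-type cyclins divided between the cell types. Ccnd2 averaged 10.80 ± 0.25 in WT astrocytes (SD, n = 4) and 6.91 ± 0.57 in WT microglia (SD, n = 7), a difference of 3.89 ± 0.30. Ccnd3 was also higher in astrocytes (1.60 ± 0.21) and Ccnd1 was lower (-1.98 ± 0.16), at 9.50 ± 0.41 in WT astrocytes and 11.47 ± 0.17 in WT microglia. Cdkn1b (1.26 ± 0.15), E2f1 (1.19 ± 0.30), Ccne1 (0.99 ± 0.25) and Mcm4 (0.71 ± 0.19) were the other genes higher in astrocytes.

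By role, 4 of 13 replication genes, 6 of 17 mitosis genes and 1 of 8 G1/S control genes were lower in WT astrocytes. Of all genes 18.0% were lower. Cdt1 had the largest gap, 6.51 ± 0.30 in WT astrocytes and 10.21 ± 0.32 in WT microglia, a difference of -3.72 ± 0.24. Mcm3 (-2.33 ± 0.13), Mcm5 (-1.95 ± 0.29) and Tk1 (-2.03 ± 0.35) followed among the replication genes. The mitosis genes lower in astrocytes were Ube2c (-2.05 ± 0.34), Top2a (-1.87 ± 0.50), Cdk1 (-1.58 ± 0.43), Birc5 (-1.31 ± 0.54), Cdca8 (-1.04 ± 0.40) and Ccnb2 (-1.02 ± 0.41). The last 3 lost their call without any one of 6 to 8 single replicates (adjusted p of 0.0502 to 0.135), each of the 4 astrocyte replicates among them, although not without WT microglia replicate 3. With slide as a random block 9 of the 17 calls remained: Ccnd2, Ccnd3 and Cdkn1b higher in astrocytes, and Ccnd1, Cdt1, Mcm3, Mcm5, Tk1 and Ube2c lower. Ccnd1, Cdt1, Mcm3, Mcm5 and Top2a were lower in WT astrocytes than in WT microglia and higher in APP/PS1 than in WT astrocytes. Most microglia, endothelial and mural markers were higher in the same APP/PS1 astrocyte samples (9 of 11, 9 of 10 and 7 of 9). Their part in these differences was not tested. Mcm6 and Mcm2 did not pass between the WT cell types (-0.32 ± 0.25 and -0.94 ± 0.40), and Mcm6 had a higher mean in APP/PS1 astrocytes (11.88) than in APP/PS1 (10.93) or WT microglia (10.81). The part of endothelial, mural or microglial cells in the Mcm6 values was not tested either.

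Other genes of the same pathway were taken from longer lists. Their counts stand against 8.27% of all genes higher and 11.4% lower in APP/PS1 microglia (7.31% and 10.2% without array 3), and 15.4% higher and 18.0% lower in APP/PS1 astrocytes. Of 40 further replication genes 3 were higher and 2 lower in APP/PS1 microglia (8 and 1 without array 3), and 8 were higher and 2 lower in astrocytes. The 3 in microglia were near the share of all genes. The origin factor gene Gins3 was higher in both (0.29 in microglia, 0.70 in astrocytes), Chaf1b, a histone chaperone of the fork, in microglia (0.73), and the Okazaki fragment genes Fen1 (0.68) and Lig1 (0.43) in astrocytes. Prim2, the large primase subunit, was lower in microglia (-0.61). Of 48 further mitosis genes 1 was higher and 1 lower in microglia (4 and 1 without array 3), and 9 were higher and none lower in astrocytes, among them the central spindle kinesin Kif23 (1.36), Incenp (0.44) and the checkpoint gene Bub3 (0.38). These counts too were near or below the shares of all genes. Kif23 was dim, at 4.11 to 4.96 in APP/PS1 and 2.06 to 4.43 in WT astrocytes, and APP/PS1 was higher on 3 of 4 arrays. The condensin gene Ncaph was lower in APP/PS1 microglia (-0.88) and higher in APP/PS1 astrocytes (0.98), and the 2 effects differed by 1.86 (adjusted p = 0.00011). It averaged 8.21 in APP/PS1 and 7.23 in WT astrocytes, and 9.57 in APP/PS1 and 10.44 in WT microglia.

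Of 29 other inhibitors, partners and targets of the G1 kinases 4 were higher and 4 lower in APP/PS1 microglia (8.27% and 11.4% of all genes). Without array 3, 5 were higher and 4 lower (7.31% and 10.2%). In astrocytes 3 were higher and 7 lower (15.4% and 18.0%). Cdkn2a, the locus of p16 and p19Arf, averaged 8.48 in APP/PS1 and 5.23 in WT microglia and was higher on 7 of 7 arrays, by a fitted 3.24 (adjusted p = 1.57e-05). It did not pass in astrocytes (0.47, adjusted p = 0.277), and the effects differed (-2.77, adjusted p = 0.00079). Cdkn2b, which codes for p15, was higher in microglia (1.06) and astrocytes (0.96), and Cdkn2c, which codes for p18, in microglia (0.91). Cdkn1c, which codes for p57, went opposite ways, at -0.64 in microglia and 1.73 in astrocytes, with a difference between effects of 2.37 (adjusted p = 1.44e-05). E2f3 was lower in both cell types, at -0.57 in microglia and -1.01 in astrocytes. So was Ccnh, of the kinase that activates other cyclin-dependent kinases, at -0.27 in microglia and -0.66 in astrocytes.

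Of 25 genes linked to p53, for which Cdkn1a is a classical target, 7 were higher and 6 lower in APP/PS1 microglia, against 8.27% and 11.4% of all genes. Without array 3, 5 were higher and 5 lower, against 7.31% and 10.2%. In astrocytes 9 were higher and 6 lower, against 15.4% and 18.0%. Phlda3 averaged 9.22 in APP/PS1 and 6.56 in WT microglia, a fitted 2.67, and it did not pass in astrocytes (0.60, adjusted p = 0.0958). Perp was higher in microglia (2.03) and astrocytes (2.61), and Pmaip1, which codes for Noxa, in both (0.63 and 0.69). Sesn1 was lower in microglia (-0.64) and astrocytes (-0.26). Btg2 was higher in both (0.31 in microglia, 1.17 in astrocytes) and Gadd45b in astrocytes (1.56). Aen was higher in microglia (0.22) and lower in astrocytes (-0.64), and Sesn2 was lower in astrocytes (-0.69). Without array 3 Btg2 and Aen missed the threshold in microglia (adjusted p = 0.0659 and 0.0767).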

How the data were processed

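RNA of 22 sorted samples was hybridised to 11 dual-colour arrays on 3 slides, 1 APP/PS1 and 1 WT sample per array, with dyes exchanged between arrays. The authors deposited log2 intensities, 1 value per probe and sample; per the submitters' processing notes limma was used; how background and arrays were adjusted is not given in the sources used here. Column medians were 6.24 to 6.26. Of 43020 probes, 33026 had 1 gene symbol, 0 had several and 9994 were unnamed. RefSeq accessions matched 32438 probes and changed 0 symbols. Each gene was represented by its probe with the highest mean, giving 22485 genes. The table held 0 columns of other samples.

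All genes were fitted in limma 3.58.1 (R 4.3.3, statmod 1.5.0) with dye as a covariate. The genotype effects of both cell types came from 1 model with array as a fixed block, and WT astrocytes against WT microglia from a model with array as a random block. P-values were two-sided and Benjamini-Hochberg adjusted over all genes, and a difference under 0.05 was called. The replicate numbers pair the samples because each number is 1 array; deviations of paired samples correlated at r = 0.37 to 0.63 in microglia and 0.0008 to 0.50 in astrocytes. The fitting steps were tested on simulated data. Tables and figures used Python 3.11.15 with pandas 2.3.3, numpy 2.4.6 and matplotlib 3.10.9.

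The 40 genes and all lists were chosen with earlier results of these data known. Values by sample are given for genes called in a genotype comparison or in the difference between cell types and for up to 3 genes a role with the largest effect; of each longer list, genes among the 4 smallest adjusted p-values in a cell type were eligible. Mki67, Rrm2, Tk1 and other genes near a threshold were added after their values were seen. Alternatives left out each replicate or slide, and varied the block, dye term, normalization, probe choice and filters. Without a statement of separate extraction per mouse, p-values measure the spread between these samples. Some genes of the longer lists are not analysed here.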

Additional observations from a re-analysis of the deposited data

Results flagged for a closer look

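Single samples lay far from the rest of their group, by Dixon's gap test, in 16 of 256 groups of values; chance gives about 1 in 20. WT microglia replicate 3 accounted for 4 of them, all above the other 6 WT samples: Birc5 at 10.05, Cdca8 at 9.19, Ccnb2 at 9.14 and Rrm2 at 8.99. WT microglia replicate 6 was high for Ccnd1 (11.80), and APP/PS1 microglia replicate 4 was low for Cenpe (5.93) and Ccne1 (5.50). APP/PS1 astrocyte replicate 3 was high for Birc5 (7.61), Ccne1 (7.35) and Plk1 (7.19) and low for Rrm1 (8.46), and APP/PS1 astrocyte replicate 1 was high for Top2a (5.24). Among the WT astrocytes, replicate 2 was high for Birc5 (6.76), and replicate 3 was low for Nusap1 (3.29) and Cdkn2a (2.36) and high for Incenp (8.86).

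The genotype effect differed between astrocytes and microglia, by a test of the difference in limma, for 9 of the 40 genes. Of these 5 were more positive and 4 more negative in astrocytes, against 13.4% and 13.2% of all genes. The astrocyte effect minus the microglia effect was 1.37 for Ccnd1, 1.29 for Mcm6, 1.17 for Mcm2, 1.16 for Cdt1 and 0.40 for Mcm3. It was -0.33 for Cdkn1b, -0.76 for Ccne1, -1.26 for E2f1 and -1.64 for Cdkn1a. Among genes named from the longer lists it was 2.37 for Cdkn1c, 1.86 for Ncaph, 1.35 for Gadd45b, 0.86 for Btg2, 0.48 for Bub3, 0.47 for Fen1, 0.41 for Gins3, 0.40 for Prim2 and 0.38 for Sesn1. It was negative for Ccnh (-0.40), Sesn2 (-0.76), Cdc25b (-0.79), Cdkn2c (-0.80), Aen (-0.86), Phlda3 (-2.07) and Cdkn2a (-2.77).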

How the results depend on the processing

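Every alternative kept the direction of the genotype calls among the 40 genes. Over all their calls, 570 refits kept the call, 103 kept the direction but missed the threshold, and 1 reversed. The reversal was E2f1 between the cell types, -0.068 in APP/PS1 samples in place of WT, where Mcm6, not called in WT at -0.32, was 0.96. The number of the 40 genes called in microglia was 4, and 14 without replicate 3. Of all genes 8.27% were higher and 11.4% lower, and 7.31% and 10.2% without replicate 3. On slide 1 alone 1 of the 40 genes was called (1039 of all genes, against 4404). On slide 2 alone 0 were called in limma, where 13 had an unadjusted p under 0.05 (0 and 4651 of all genes). Fewer arrays entered those fits. In astrocytes the 10 calls were 5 without replicate 4. They were 6 with the astrocyte arrays matched in Eif2s3y and all microglia arrays (this setting was chosen after seeing the data). Astrocyte arrays alone gave 2854 calls over all genes, against 7515. The difference between cell types had 9 calls, and 14 without microglia replicate 3. Of all genes 13.4% were more positive and 13.2% more negative in astrocytes, and 12.7% and 11.8% without that replicate. With slide as a random block the WT comparison gave 9 of the 40 genes, against 17, and 7261 of all genes, against 11940.

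The replicate block, the pairing of samples by array, mattered. With no replicate block, calls over all genes numbered 1184 for microglia and 2447 for astrocytes. For the difference between cell types they numbered 1491, against 5953 with it. Of the 40 genes they were 1 (Cdkn1a), 4 (Ccnd1, Mcm6, Cdt1 and Cdkn1a) and 4. With array as a random replicate block 16 of the 40 genes were called in astrocytes, 14 higher and 2 lower. The share of all genes called in that fit is not given here, so the 16 are not set against it. The cause of these changes with the block was not tested.

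Leaving out 1 replicate at a time gave 3300 to 3922 calls over all genes in microglia, 5521 to 6839 in astrocytes, 4401 to 5942 for the difference between cell types and 10984 to 12319 for the WT comparison. Of the 40 genes these were 3 to 14, 5 to 9, 6 to 14 and 14 to 20. Signal limited 7 genes with blank values (Ccne2, Cdc6, Top2a, Aurkb, Bub1, Bub1b and Kif11), and astrocyte values rest on 4 arrays.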
